A study of Mus musculus with 6 samples.

Results

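Runx3, Thy1 and Bcl11b, 3 genes of the T lymphocyte lineage, were nearest to 11 of the 6756 cytosines that the authors' deposited tables list as differing in methylation between LSK cells with and without Tet1. The 3 genes were taken by their names in the tables, out of 3344 genes named there. LSK cells are the lineage-negative fraction positive for Sca-1 and Kit, in which blood stem cells and early progenitors are found. They were flow-sorted from bone marrow of mice aged 6 months, of a strain that the labels spell CD57BL/6, with 3 samples labelled WT and 3 labelled Tet1 KO. The sources used here give neither the knockout allele nor the number of animals behind each sample. DNA was bisulfite-converted and sequenced by enhanced reduced representation bisulfite sequencing, an assay that reads mainly CpG-rich fragments and counts 5-hydroxymethylcytosine as methylated.

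Tet1 encodes a dioxygenase that oxidises 5-methylcytosine, a step towards removal of the methyl group. T cells arise in the thymus from progenitors that leave the bone marrow, and during that passage Notch signals, and then a set of transcription factors, switch on T cell genes and close off other fates. Bcl11b encodes a zinc finger factor required for T cell commitment. Runx3 encodes a Runt domain factor that silences Cd4 and drives the cytotoxic programme in CD8 T cells and natural killer cells. Thy1 encodes CD90, a glycosylphosphatidylinositol-anchored surface protein of mouse thymocytes and T cells. Some mouse haematopoietic stem cells also carry Thy1 at a low level, and none of the 3 genes marks LSK cells as a whole.

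Each listed cytosine carries 1 value, its methylation difference in percentage points between the genotypes, and the lists begin at an absolute difference of 25. Values per sample, coverage and p-values were not used here, so the spread between replicates and the depth behind each difference are unknown and no difference could be tested. A positive value means more methylation in the knockout, as the list names and signs imply. A gene named beside a site is the one with the nearest annotated transcription start. The members were chosen from these same values, which are therefore a description.

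Of the 11 sites of the 3 genes, 10 were listed as hypermethylated in the knockout and 1 as hypomethylated. The hypermethylated share was 90.9%, against 92.8% of all listed sites, so the direction of these genes was near that of the lists as a whole. Of the 10 hypermethylated sites, 7 were genic, lying in an exon or intron, and 3 were distal, meaning intergenic. The genic share of 70.0% stood beside 63.9% of all hypermethylated sites. The split rests on the annotation. With distal set as over 10000 bp from the annotated start, 1 of the 10 was genic and 9 were distal. That count uses the single annotated start per gene, and Runx3 has a second start, to which no distance was computed. The single hypomethylated site was intergenic, as were 43.6% of all hypomethylated sites. In these 3 genes, then, no hypomethylated site was genic. The hypermethylated sites of Runx3 and Bcl11b were all genic and those of Thy1 were all distal. Such a split is the usual one: in 580 of the 718 genes with at least 3 hypermethylated sites (80.8%), these were all genic or all distal.

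**Figure D1:**
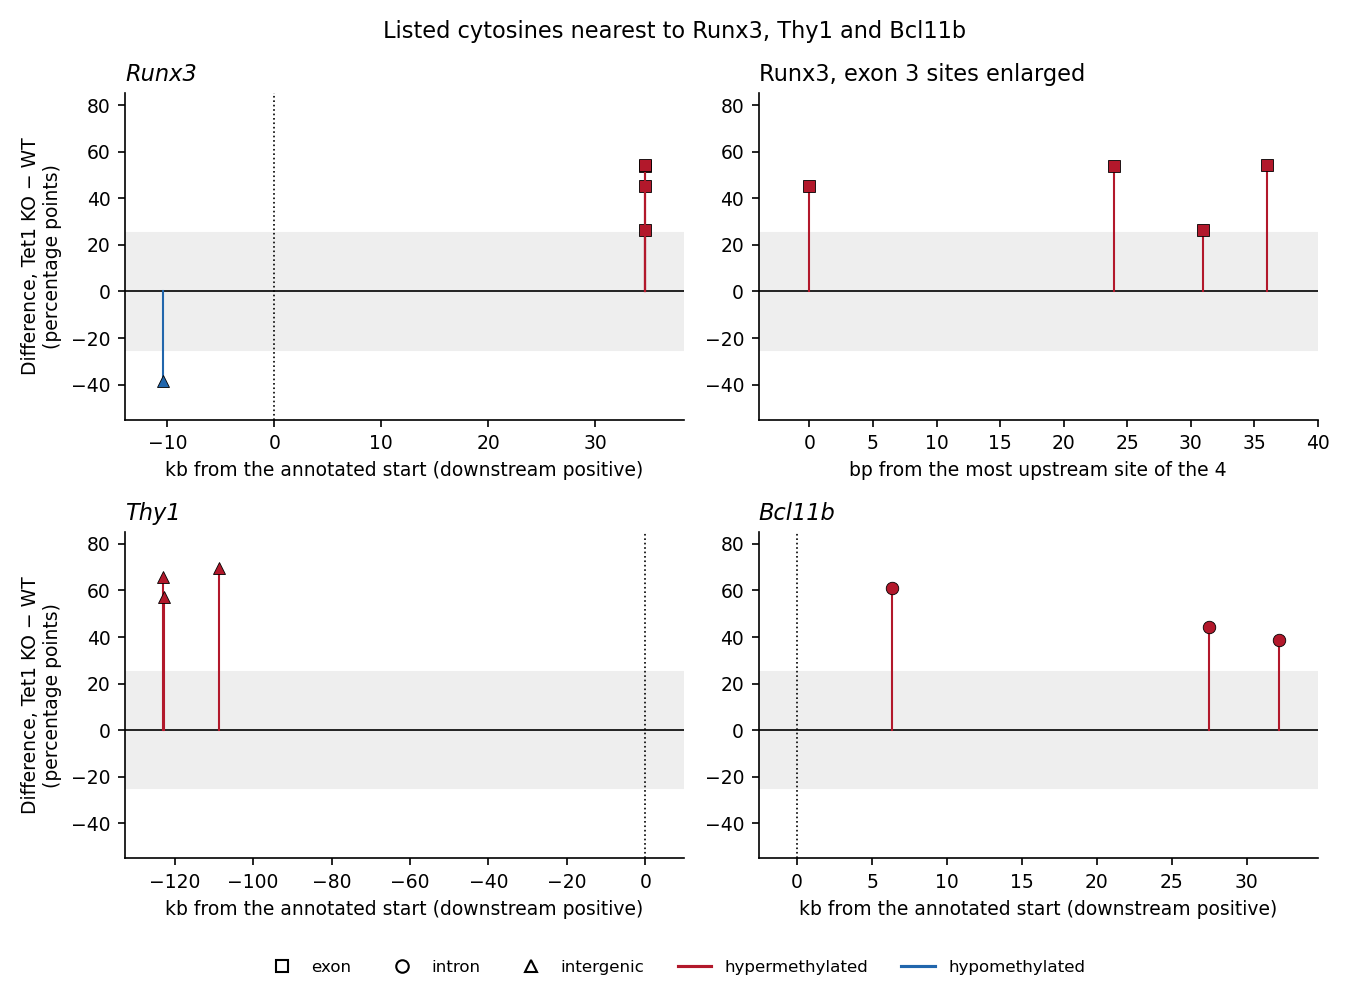
Methylation difference (knockout minus wild type, percentage points) of the 11 listed cytosines against their position from the annotated transcription start (dotted line) in kb, on a scale of its own for each gene; the upper right panel enlarges the 4 Runx3 exon 3 sites in bp. Symbols give the annotated feature, red and blue give the direction, and the grey band marks differences under 25, which the lists do not hold. Runx3 has sites of opposite direction on the 2 sides of its start, all 3 Thy1 sites lie over 100 kb upstream, and the 3 Bcl11b sites lie within the gene.

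None of the 11 sites was annotated to a promoter, a class that holds 11.2% of all hypermethylated and 4.53% of all hypomethylated sites. Measured to the single start per gene that the files use, the closest site lay at 6296 bp for Bcl11b, 10370 bp for Runx3 and 108791 bp for Thy1. Runx3 has a second start within the gene, to which no distance was computed. The promoter windows are shown because they carry some of the CpGs at which a promoter difference could have been listed. The annotated promoter class reaches farther than these windows, since a Hhex site in it lay 424 bp from its start. They hold 250 bases before and 50 from the annotated start, 5′ to 3′ on the strand of the gene, from RefSeq (GRCm38.p6), with every CpG in capitals. The table held 2 windows for Runx3 and 1 for Bcl11b.
Runx3, distal start, chr4:135120395-135120694, plus strand: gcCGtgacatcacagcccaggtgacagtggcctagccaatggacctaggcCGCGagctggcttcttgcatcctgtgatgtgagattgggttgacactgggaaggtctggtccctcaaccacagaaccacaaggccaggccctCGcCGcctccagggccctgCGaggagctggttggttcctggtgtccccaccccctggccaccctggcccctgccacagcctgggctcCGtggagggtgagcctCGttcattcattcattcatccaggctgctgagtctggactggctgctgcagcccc
Runx3, proximal start, chr4:135152295-135152594, plus strand: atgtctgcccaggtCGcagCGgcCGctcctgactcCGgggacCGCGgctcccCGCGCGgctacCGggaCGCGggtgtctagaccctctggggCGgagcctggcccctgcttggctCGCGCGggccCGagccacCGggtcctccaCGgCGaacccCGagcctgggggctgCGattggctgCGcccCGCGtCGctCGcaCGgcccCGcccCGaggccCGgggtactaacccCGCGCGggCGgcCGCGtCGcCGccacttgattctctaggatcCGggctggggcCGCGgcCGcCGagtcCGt
Bcl11b, chr12:108003365-108003664, minus strand: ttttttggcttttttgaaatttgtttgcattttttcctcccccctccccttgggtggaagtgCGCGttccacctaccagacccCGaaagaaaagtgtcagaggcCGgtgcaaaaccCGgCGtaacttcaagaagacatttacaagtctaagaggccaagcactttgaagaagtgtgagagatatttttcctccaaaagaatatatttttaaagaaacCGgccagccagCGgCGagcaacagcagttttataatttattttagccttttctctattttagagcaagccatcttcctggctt
The distal Runx3 window held 8 CpGs and the Bcl11b window 9, near the median of 7 over all 32851 promoter windows. The proximal Runx3 window held 45 CpGs, more than 98.1% of the windows. CCGG, the site cut by the enzyme commonly used in reduced representation libraries, reads the same on both strands and contains a CpG. It occurred 0 times in the distal Runx3 window, 5 times in the proximal one and 3 times in that of Bcl11b, and 52.8% of all windows held at least 1. The enzyme used here is not given in the sources, and whether these CpGs were read in the 6 samples is not known, so the lack of a listed promoter site does not show that promoter methylation was alike in the 2 genotypes.

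Runx3 had sites in both directions. Its 4 hypermethylated cytosines lay in exon 3 of 6 (annotated transcript NM_019732) on the forward strand of chromosome 4, at 134711247, 134711271, 134711278 and 134711283 (mm9). In that order, the authors' deposited differences were 45.2, 53.8, 26.5 and 54.2 percentage points. Of these 4 sites 3 were above 45 and the remaining one was close to the limit of the list, although it lay 7 bp from the site at 53.8 and 5 bp from the site at 54.2. The listed mean was 44.9 percentage points (SD over sites 13.0, 4 sites), and SDs over sites are not replicate errors. The 4 sites spanned 36 bp, less than a single read of 50 bp, so they may share reads and are not 4 independent measurements.

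Clusters of this kind were uncommon in the deposited tables. Of the 3018 genes with a hypermethylated site, 66 had an exon with at least 4 such sites, and there were 68 such exons. Only 718 of the 3018 genes had at least 3 hypermethylated sites, so most had too few sites to hold such an exon. The Runx3 cluster was among the compact ones: 12 of the 68, itself included, spanned no more than 36 bp, and their median span was 63.5 bp. Its listed difference was on the low side, with 15 of the 68 exons at a lower mean. The proximal Runx3 start lies 31900 bp downstream of the distal one in GRCm38.p6, and the 4 exon 3 sites lie 34687 to 34723 bp downstream of the annotated start in mm9. Positions were not carried between the builds, so no distance from these sites to the proximal start is given.

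The hypomethylated cytosine of Runx3 lay on the other side of the gene's start, 10370 bp upstream, at 134666190 on the reverse strand of chromosome 4. The authors' deposited value was -38.5 percentage points, larger in size than 66.3% of hypomethylated sites. It stood alone, with the nearest listed cytosine of either direction 45057 bp away, in exon 3 of Runx3 itself. Sites in both directions were found for 108 of the 3344 listed genes (3.23%). In 11 of these 108, Runx3 included, the hypermethylated sites were all genic and the hypomethylated sites all distal. The gap between opposite sites was smaller than that of Runx3 in 68 of the 108 genes, and the median gap was 28565 bp.

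Thy1 was nearest to 3 sites, all hypermethylated and all far upstream. A pair on the forward strand of chromosome 9, at 43728651 and 43728668 (mm9), lay 122816 and 122799 bp from the start of Thy1. The authors' deposited differences there were 65.6 and 57.4 percentage points. The pair was 17 bp apart and may share reads. The third site, at 43742676 on the reverse strand and 14008 bp from the pair, had a difference of 69.6 percentage points at 108791 bp from the start. All 3 exceeded every genic hypermethylated site of the other two genes except the Bcl11b site at 61.1 percentage points, which lay between them.

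The Thy1 sites had large differences, within the whole list as well as for their distance. Each was larger than 84.7% to 95.7% of all hypermethylated sites. Of the 645 hypermethylated sites at least 100000 bp from a start, whose median was 38.9 percentage points, 11, 37 and 88 had a larger difference than the Thy1 sites at 69.6, 65.6 and 57.4. The listed mean of Thy1, 64.2 percentage points (SD over sites 6.21, 3 sites), ranked 30 of the 718 genes with at least 3 hypermethylated sites. With neighbours under 1000 bp apart merged, the 3 sites formed 2 regions. In 43 of those 718 genes, Thy1 included, every site lay at least 100000 bp away. At that distance the gene name marks the nearest start and no more. In the RefSeq gene order for GRCm38.p6, Thy1 stands between Nectin1, a cell adhesion gene listed in the files under its older symbol Pvrl1, and the ubiquitin protease gene Usp2.

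Bcl11b had 3 hypermethylated sites spread along its first 2 introns, all on the reverse strand of chromosome 12, the strand of the gene. The intron 1 site, at 109235328 (mm9) and 6296 bp downstream of the start, had an authors' deposited difference of 61.1 percentage points. Intron 2 held the other two, at 109214156 and 109209454, with differences of 44.2 and 38.6 percentage points at 27468 and 32170 bp downstream. The value was thus lower at each site farther into the gene, an order of only 3 cytosines. They were 4702 and 21172 bp apart, so no 2 of them fit on the same read, unlike the clustered sites of Runx3 and Thy1. The listed mean was 48.0 percentage points (SD over sites 11.7, 3 sites), higher than in 66.2% of the 718 genes with at least 3 hypermethylated sites, against 54.3% for Runx3 and 95.8% for Thy1.

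Over the 3 genes, the hypermethylated sites ranged from 26.5 to 69.6 percentage points with a median of 54.0. Of the 10 sites 8 were above the median of all hypermethylated sites, 41.1. The 10 form 6 regions with neighbours under 1000 bp apart merged, so they are not 10 independent values. The 3 distal sites ranged from 57.4 to 69.6 percentage points and the 7 genic sites from 26.5 to 61.1, so the ranges overlapped. Their medians were 65.6 and 45.2, whereas over all hypermethylated sites the distal and genic medians were 40.6 and 41.4. The distal values of the 3 genes come from Thy1 alone, so place and gene cannot be told apart. The 7 intron and intergenic sites among the 11 carried no CpG island or repeat label, labels that 16.9% of all hypermethylated and 32.3% of all hypomethylated intron and intergenic sites carried. For none of the 11 was the cytosine on the opposite strand of the same CpG listed as well, and 1.69% of all listed sites had such a partner.

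**Figure D2:**
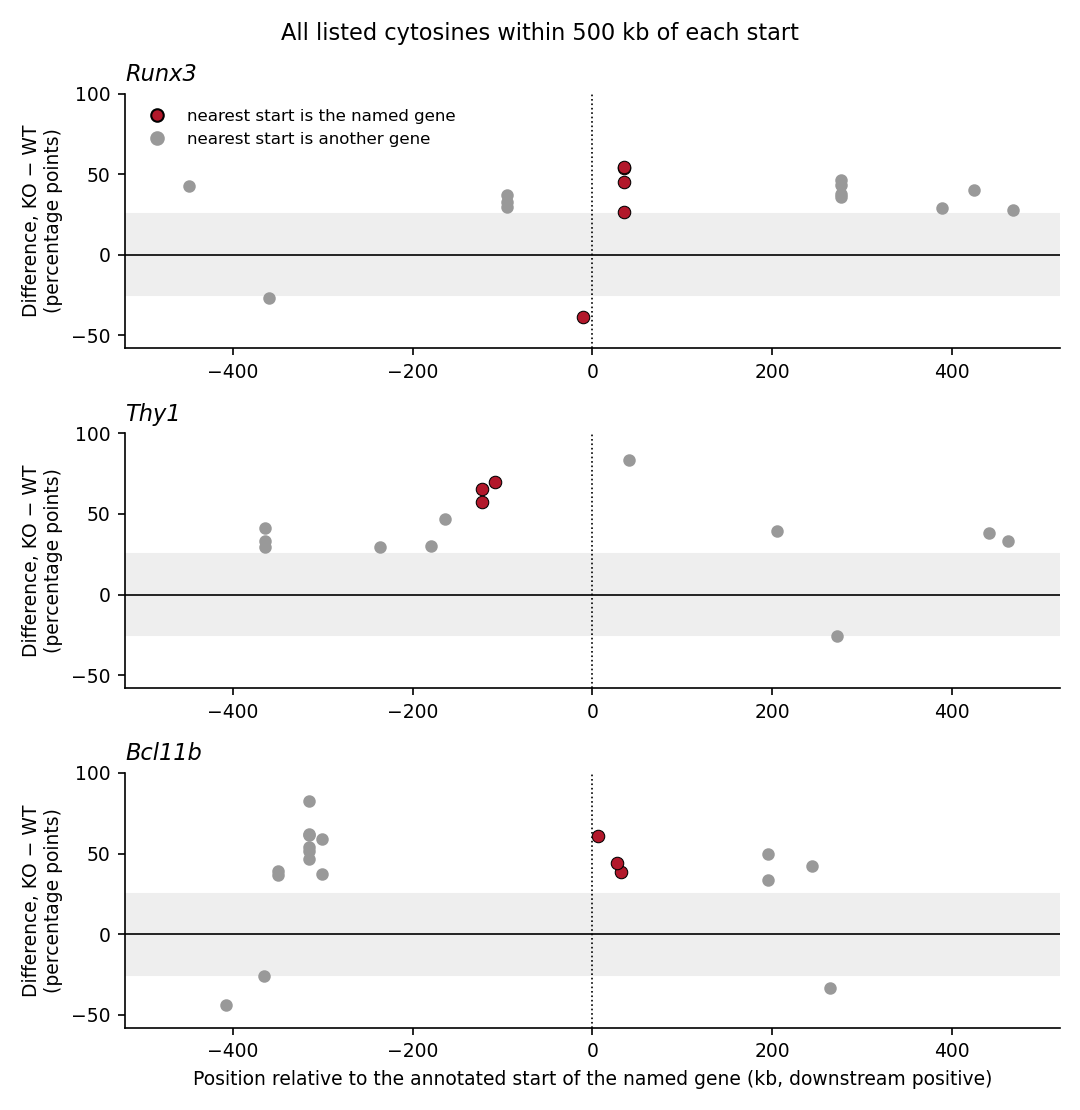
Methylation difference (knockout minus wild type, percentage points) of every listed cytosine within 500 kb of the annotated start of each gene, against its position in kb with downstream positive. Red points are sites nearest to the named gene, grey points are sites nearest to another gene, and the grey band marks differences under 25. Most flanking sites are hypermethylated, as in the whole lists, with 1 hypomethylated site of another gene beside Runx3, 1 beside Thy1 and 3 beside Bcl11b.

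The flanks of the 3 genes were mostly hypermethylated, as the lists are throughout: 34 of the 39 listed sites of other genes there (87.2%) were hypermethylated, beside the 92.8% of all listed sites. Within 500000 bp of the Runx3 start lay 12 listed sites of 6 other genes, 11 of them hypermethylated, and the nearest was 84600 bp from a Runx3 site. Around Thy1 there were 11 sites of 5 other genes, 10 of them hypermethylated. The nearest of these was 41469 bp from the Thy1 pair, on the side of Pvrl1, and the largest was at a promoter site of Usp2 at 83.5 percentage points, 40809 bp downstream of the Thy1 start. Around Bcl11b there were 16 sites of 4 other genes, 13 of them hypermethylated, the nearest 163148 bp from a Bcl11b site. The other hypermethylated sites had medians of 37.0 percentage points around Runx3, 35.7 around Thy1 and 49.7 around Bcl11b. The medians of the genes' own hypermethylated sites were 49.5, 65.6 and 44.2.

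Other genes of the T lineage were taken from a list of 76 genes in 5 groups, all found in the reference. Of these, 14 (18.4%) were nearest to a listed site, and 11 of the 73 other than Runx3, Thy1 and Bcl11b (15.1%). Over all RefSeq protein-coding genes the share was 13.7%. Of the 14 genes 12 had hypermethylated sites alone, against 87% of all listed genes. The 22 hypermethylated sites of the 11 other genes had a median of 41.6 percentage points, close to the 41.1 of the whole list. Gene length and the number of cytosines read per gene bear on such shares and were not adjusted for. The list was drawn up with earlier results of these data known, so its shares are a description and not a test.

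Of 20 factors of T cell commitment and the early T cell programme, 8 were listed, all with hypermethylated sites alone, beside the 13.7% of protein-coding genes listed and the 87% of listed genes with hypermethylated sites alone. The 8 include Bcl11b, which was chosen because it was listed. The list was drawn up with earlier results of these data known, and no difference between its groups was tested. The group is broader than commitment alone, since Lyl1, Hhex and Bcl11a also act in blood progenitors before it. Dtx1, a ubiquitin ligase gene in the Notch pathway, had 8 sites. The 4 in its exon 2 of 10 had listed differences of 35.5, 63.3, 76.2 and 87.4 percentage points, 1387 to 1418 bp from the start, a single-exon cluster like that of Runx3. Lef1 and Tcf7 encode related HMG box factors of early T cell development. Lef1 had 3 intergenic sites at 38.9, 43.8 and 87.5 percentage points and an intronic site at 45.2, and Tcf7 had 1 intergenic CpG island site at 33.3. Tcf3, which encodes the E2A basic helix-loop-helix factors, had 3 intergenic sites at 47.9, 64.0 and 68.4 percentage points, 30376 to 30419 bp from its start. The chromatin organiser gene Satb1 had 1 intronic CpG island site at 29.7 percentage points, 443 bp from its start. The homeobox gene Hhex had the only site of the 76 genes annotated to a promoter, at 35.7 percentage points and 424 bp from its start. The site nearest to Lyl1 (33.8 percentage points) lay in exon 15 of 17 of another gene, Trmt1. The commitment genes Gata3 and Notch1 and the Bcl11b paralogue Bcl11a had no listed site.

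The 10 genes of the Runx family, their partner and the fate factors that act with or against Runx3 included 3 listed genes. That was 30%, beside the 13.7% of protein-coding genes listed, and the 3 include Runx3, which was chosen because it was listed. Runx2, the family member known for bone formation, had 1 intergenic hypomethylated site at -40.4 percentage points, 138286 bp from its start, and no hypermethylated site. This site and that of Runx3 were the only 2 hypomethylated sites of the 76 genes, each a single intergenic cytosine. Thus 2 of the 14 listed genes had a hypomethylated site, near the 13% of all listed genes that had one. Runx1, required for the emergence of blood stem cells, and Cbfb, the shared partner subunit, had no listed site. Tbx21, which encodes the type 1 T cell factor T-bet, had 1 hypermethylated site in intron 1 of 5, at 42.8 percentage points.

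Among 22 T cell surface genes, Thy1 and Cd6, a scavenger receptor family gene, were listed. The site of Cd6 was in intron 1 of 11 at 35.7 percentage points. The 22 also hold Kit and Ly6a, the gene of Sca-1, which mark the LSK cells themselves, and neither was listed. Of 15 genes of T cell receptor assembly and signalling, Nfatc2, a calcium-regulated transcription factor gene, had 1 listed site. It was a CpG island site in intron 1 of 6, at 25.8 percentage points and 288 bp from the start. None of 9 cytotoxic effector genes was listed. These include Gzmb and Prf1, which encode granzyme B and perforin. Cd4 and Cd8a, whose expression Runx3 is known to govern, had no listed site either. A gene without a listed site may not have been read. The listed shares were 9.09% of the surface genes, 6.67% of the receptor genes and 0% of the effector genes, beside 13.7% of protein-coding genes. These shares rest on few genes and were not tested, and Thy1 was chosen because it was listed.

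**Figure D3:**
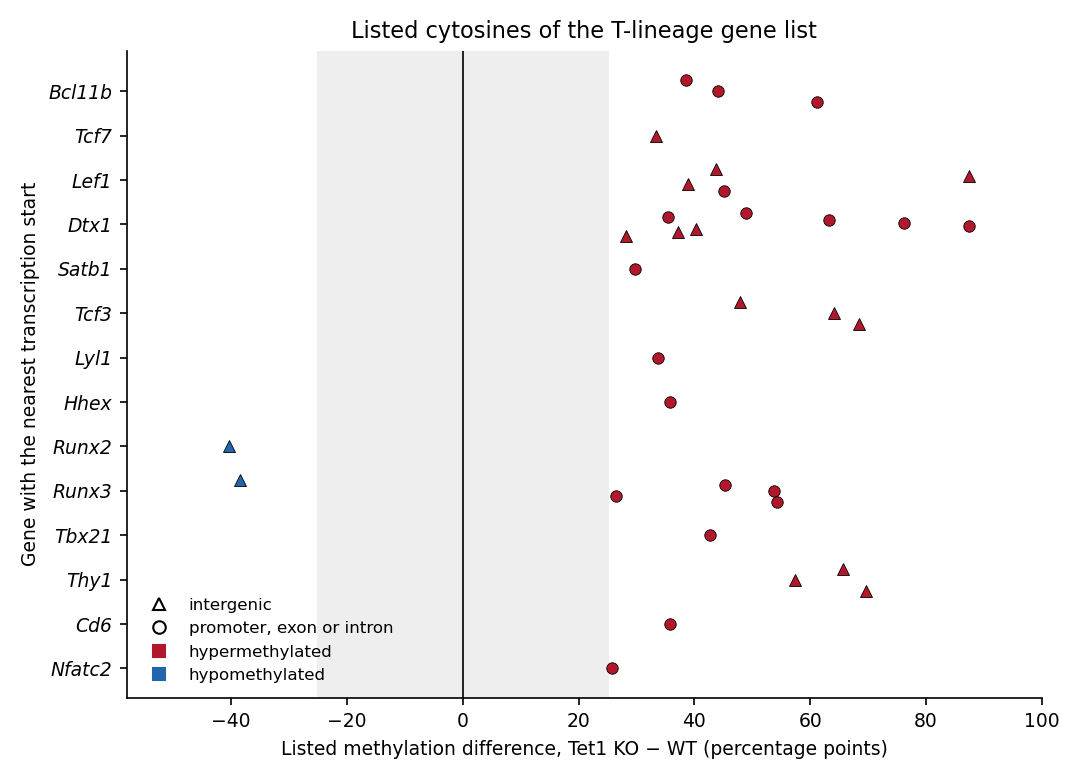
Listed methylation difference (knockout minus wild type, percentage points, horizontal axis) of all 34 listed cytosines of the 14 T-lineage genes that had one, in rows by gene. Triangles are intergenic sites, circles are sites in a promoter, exon or intron, red and blue mark the direction, and the grey band marks differences under 25. The 2 sites below 0 belong to Runx2 and Runx3, and the highest values belong to Lef1 and Dtx1.

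The counts of sites by place and direction were then compared between genes. No gene had the same 4 counts (genic and distal, hypermethylated and hypomethylated) as Runx3. The smallest difference from it, 1 site, was shared by 79 genes. Of these, the 3 with the closest means were Lefty2, 2810029C07Rik and Rorb, with 4 genic hypermethylated sites (means 45.2, 44.3 and 45.7 percentage points) and no hypomethylated site. The counts of Thy1 were shared by 84 other genes, of which Tmem192, Tcf3 and Mipep had the closest means (60.8, 60.1 and 60.0 percentage points). Those of Bcl11b were shared by 154, of which Slc32a1, Fam84a and Accn4 were closest in mean (47.9, 48.1 and 48.1 percentage points). The measure of likeness was the sum of absolute differences of the 4 counts in the 1 comparison of genotypes. Ties were ordered by mean, so the nearness of the means follows from the choice. Tet1 itself had 0 listed sites, and these tables give no check of the knockout.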

How the data were processed

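Methylation of genomic DNA was measured in 3 WT and 3 Tet1 KO samples of LSK cells. Per the labels' protocols, bisulfite-converted libraries were read as 50 bp single-end reads, and the submitters' processing notes name Bismark and mm9 only. How sites were called, at which coverage and threshold, and whether replicates were pooled is not given in the sources used here. Each of the authors' 2 deposited tables holds a methylation difference in percentage points and a distance in bp to the nearest transcription start per cytosine. Columns of values per sample numbered 0, so the planned test of replicate counts was not run and depth is unknown.

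Positions are those in the authors' site names. The files' start column is 1 higher, and whether a name counts from 0 or 1 was not resolved. The sign of the deposited distance depends on the strand of the cytosine, so starts were solved from all sites of a gene. This gave 1 position per gene. The solution was tested on simulated data. Gene strand came from the RefSeq promoter table, or for Thy1 from the same rule of signs. For an alternative count, same-direction neighbours under 1000 bp apart were merged.

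The 3 genes, the list of 76 genes and the alternatives were chosen with earlier results of these data known. Named genes were the 3 members, every listed gene of the 76, Tet1, and up to 3 genes per member with the most similar counts. Gata3, Notch1, Bcl11a, Runx1, Cbfb, Gzmb, Prf1, Cd4, Cd8a, Kit, Ly6a and the neighbours Pvrl1 and Usp2 were named after values were seen. Python 3.11.15, pandas and matplotlib were used.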

Additional observations from a re-analysis of the deposited data

How the results depend on the processing

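Of 28 values recomputed under the alternatives, 18 stayed within limits: 1.5 times for a count, and the SD over a gene's sites for a mean. Joined into regions, the 10 hypermethylated sites of Runx3, Thy1 and Bcl11b became 6 regions at 1000 or 200 bp and 5 at 5000 bp. On the forward strand alone 6 hypermethylated and 0 hypomethylated sites were left, and those of Bcl11b were lost. With distal meaning over 10000 bp from the annotated start, 9 hypermethylated sites were distal and 1 genic, in place of 3 and 7. The balance turned because exon 3 of Runx3 and intron 2 of Bcl11b lie farther than that from the start used. Runx3 has a second start within the gene, from which its sites were not measured, so the count could change with that start. At 40 percentage points or more, 8 hypermethylated sites remained, but the hypomethylated site of Runx3 did not, leaving 0 hypomethylated sites and 0 hypomethylated distal sites. The listed T-lineage genes then fell from 14 to 8 of 76. Taking the gene that holds the site in place of the nearest start gave a count of 14 again. The genes need not be the same ones, since the only Lyl1 site lay in Trmt1.

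No paired analysis was possible because the tables hold no values per sample, and no replicate was left out and no coverage minimum applied for the same reason. Depth is unknown and no precision is given. Means per gene leave out cytosines under 25 percentage points.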
